A study of Mus musculus with 24 samples.

Results

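The effect of losing miR-155 was compared between 2 cell types of the mouse immune system, macrophages and CD4 T cells, gene by gene. The comparison used 12 of the 24 libraries of the series, which were all libraries labelled macrophage or CD4 T cell: 3 from miR-155 knockout (KO) and 3 from wild-type (WT) mice for each. The measure is the interaction: the log2 KO-over-WT change in macrophages minus the same change in CD4 T cells. A value above 0 means that the change was more upward in macrophages, whatever its sign in either cell type. Of 20673 gene symbols in the files, 11700 were expressed enough in these libraries to be tested.

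All mice were of the C57BL/6J strain, and all cells were kept in RPMI medium with serum before harvest. The macrophages came from the peritoneal cavity after injection of thioglycollate, an irritant that draws monocytes into the cavity, and were activated with 100 ng/ml LPS, a bacterial ligand of Toll-like receptor 4. The CD4 T cells came from lymph node and spleen, lacked CD25 and CD44, and were activated with beads that carry antibodies to CD3 and CD28. Cell type, tissue and stimulus therefore changed together, and their parts in a difference between the cell types cannot be told apart. The KO mice lacked the microRNA in every cell, not in the sampled type alone. The labels used here do not state the age or sex of the mice or how long the cells were stimulated.

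miR-155 is made from a host transcript that is switched on when macrophages and lymphocytes are activated. Loaded into an Argonaute protein, it uses its seed to find short matching words in the untranslated tails of transcripts and represses them, so that direct targets tend to rise when it is lost. It is known for its part in inflammatory activation of macrophages and in helper T cell responses. The mature strand, with the seed (bases 2 to 8) in capitals, shows what the sites printed further on pair with. RefSeq places it on the plus strand of chromosome 16, 84714143 to 84714165 (GRCm38.p6).
mmu-miR-155-5p: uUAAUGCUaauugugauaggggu

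Libraries held 8070030 to 14219823 gene counts. Defining markers fitted the labels: the summed level of 11 macrophage markers ran from 42900 to 51700 CPM (counts scaled to a fixed library total) in macrophage libraries and from 4.83 to 6.52 CPM in CD4 T cell libraries, and 10 T cell markers summed to 2360 to 2550 CPM against 2.57 to 4.69 CPM. Neither Mir155 nor its host gene was among the symbols, so the deleted gene offers no check of the KO label. The libraries of CD4 T cells resembled each other more closely than those of macrophages, with a biological coefficient of variation of 6.08% against 17.7%. Within macrophages the WT libraries stood apart from each other. The chi-square per gene, near 1 for pure counting noise, was 161 between WT replicates 2 and 3, 65.8 between 1 and 3 and 39.2 between 1 and 2, against 4.54 to 12.4 between KO libraries and 2.08 to 6.33 in CD4 T cells. In WT replicate 3, Il6 was 3.4 and Csf3 3.46 log2 units above the other WT macrophage libraries, while Pparg and Fabp4 were lower, with log2 differences of -2.48 and -2.53. The labels name no separate animals, so every p-value measures library-to-library spread, part or all of which may be technical.

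The KO effect differed between the cell types for 124 of 11700 genes (1.06%), at a Benjamini-Hochberg adjusted p under 0.05 in edgeR's quasi-likelihood test. The interaction was above 0 for 67 genes (0.573%) and below 0 for 57 (0.487%). The balance turned to 53 above and 68 below 0 with the replicate number as a block, and to 188 above and 257 below 0 with all 24 libraries in the fit. Before adjustment, 1739 genes (14.9%) had a p under 0.05. The called interactions had a median size of 1.06 log2 units and ranged from 0.45 to 4.67. Within the joint fit of 12 libraries, the KO effect of 114 of the 124 genes was called in macrophages alone, of 5 in CD4 T cells alone, of 5 in neither and of 0 in both. That split depended on the fit: on each cell type's own libraries it was 40 in macrophages alone, 14 in CD4 T cells alone, 2 in both and 68 in neither. In limma voom with 1 weight per cell type it was 85, 13, 4 and 22. The single effects had opposite signs for 100 of the 124 genes, and the effect was larger in macrophages for 110. KO and WT libraries did not overlap in CPM for 120 of these genes in macrophages and for 55 in CD4 T cells. The test that picked the 124 genes used these same libraries, so opposite signs and separated groups are partly built in. These counts describe the called genes only, and their shares over all genes tested are not given here.

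**Figure D1:**
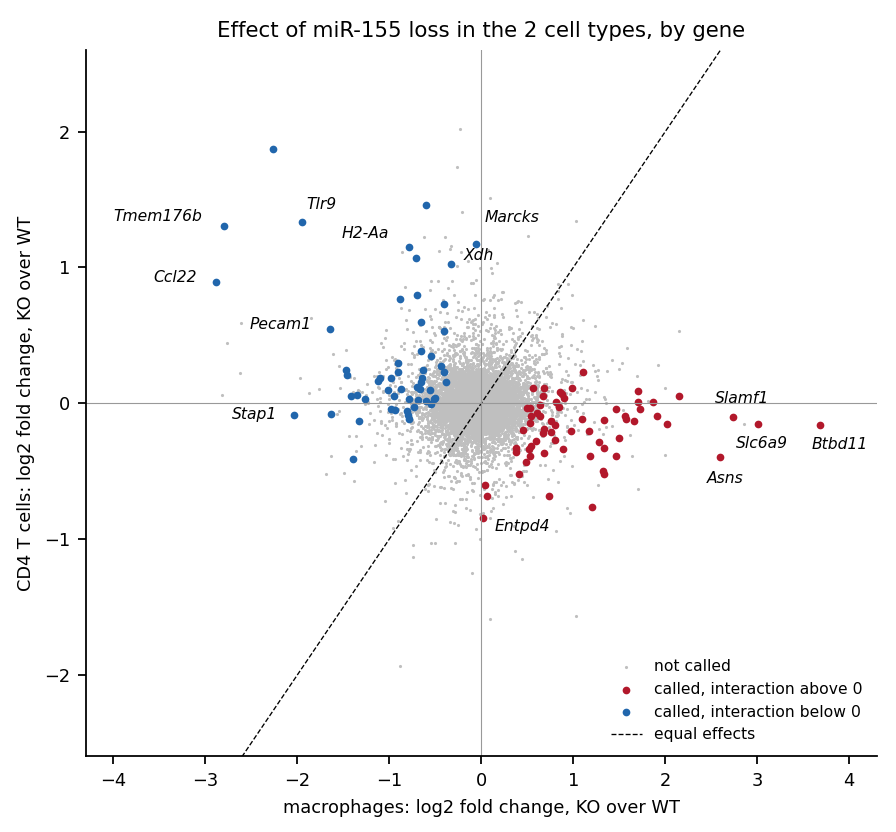
Each point is a gene expressed at 1 CPM or more in both cell types, at its log2 KO-over-WT change in macrophages (horizontal) and in CD4 T cells (vertical), both from the joint fit of 12 libraries. Genes with an interaction above 0 (red) lie below the dashed line of equal effects and those below 0 (blue) above it; most spread along the macrophage axis.

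Within the joint fit, 504 genes rose (4.31%) and 480 fell (4.1%) in KO macrophages, and 7 genes changed in KO CD4 T cells (0.0598%). This fit gives both cell types 1 common spread per gene, although the spread of macrophage libraries was the larger. When each cell type was fitted on its own 6 libraries, the order turned: 95 genes were called in macrophages (0.885% of 10730) and 223 in CD4 T cells (2.15% of 10396), 140 of them up and 83 down. A limma voom fit with 1 weight per cell type gave macrophages a weight of 0.578 and CD4 T cells 1.73 and called 98 interactions (0.838%), 81 of them among the 124. Across the 9381 genes expressed at 1 CPM or more in both cell types, the Pearson correlation of the 2 effects was 3.5e-05 and the Spearman correlation 0.042. That correlation is across genes, which are not independent replicates, and is given as a description.

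The number of calls depended on single libraries. Without macrophage WT replicate 3 it rose to 1962 (16.6% of 11810 genes), and all 124 genes were still called. Without macrophage WT replicate 2 it was 274, and without WT replicate 1 it was 48. Leaving out macrophage KO replicates 1, 2 or 3 gave 34, 34 or 104 calls. Leaving out CD4 T cell KO replicates 1, 2 or 3 gave 18, 50 or 38 calls, and leaving out their WT replicates 1, 2 or 3 gave 89, 21 or 70. Of the 124 genes, 16 kept an adjusted p under 0.05 in each of the 12 fits that left out 1 library. They were Btbd11, Slamf1, Slc6a9, Phgdh, Slc7a5, Bcat1, Dab2ip, Cdyl and Eaf1, above 0, and Pecam1, Stap1, Tmem176b, Coro1a, Fgd2, Arl5c and Xdh, below 0. Dab2ip, Eaf1, Coro1a, Fgd2, Arl5c and Xdh are named here after their values were seen.

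**Figure D2:**
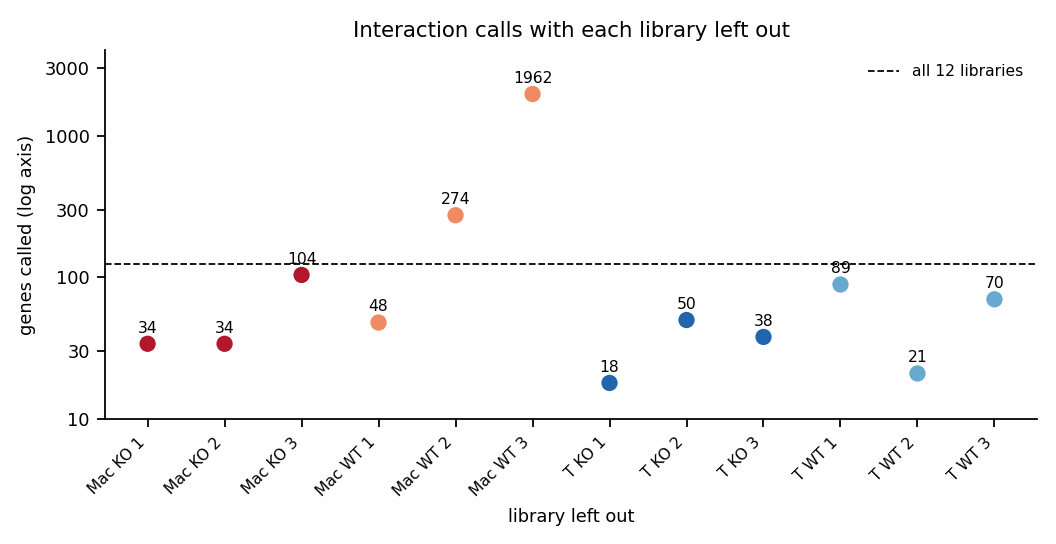
Number of genes called for the interaction (log axis) when the library named under each point was left out of the fit; the dashed line is the count with all 12 libraries, 124. Colours mark the 4 groups, and the points run from 18 without CD4 T cell KO replicate 1 to 1962 without macrophage WT replicate 3.

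Several of the largest positive interactions belonged to genes that CD4 T cells expressed in both genotypes and that were low in WT macrophages. Btbd11, a protein with ankyrin repeats and a BTB domain, was at 2.70, 2.81 and 2.35 CPM in KO macrophages and at 0.200, 0.182 and 0.198 CPM in WT macrophages. Among CD4 T cells it was at 13.5, 12.5 and 12.7 CPM in KO and 15.0, 15.8 and 12.3 CPM in WT libraries. The groups were thus wide apart in macrophages and overlapped in CD4 T cells. The interaction was 3.84 ± 0.31 log2 units (standard error, SE; adjusted p 0.00032, edgeR). Each WT macrophage library held only 2 reads of Btbd11, against 73 in the 3 KO libraries, a ratio of 13.6 with a 95% exact counting interval of 5.94 to 38.1.

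Slamf1, which encodes the self-binding lymphocyte receptor SLAM, showed the same arrangement. It stood at 8.31, 7.88 and 9.81 CPM in KO macrophages and at 1.40, 0.638 and 1.88 CPM in WT macrophages, with 73.1 to 76.5 CPM in KO and 74.9 to 84.7 CPM in WT CD4 T cells. Its interaction was 2.84 ± 0.26 (adjusted p 0.00061). Slc6a9, the glycine transporter GlyT1, was at 5.93, 4.86 and 5.76 CPM in KO and 0.7, 0.638 and 0.693 CPM in WT macrophages. CD4 T cell libraries lay between 4.72 and 7.58 CPM in KO and between 5.34 and 8.73 CPM in WT libraries. The KO macrophages thus lay within the range of the CD4 T cells and the WT macrophages below it, and the interaction was 3.16 ± 0.37 (adjusted p 0.0039). Dab2ip, a GTPase-activating protein for Ras, rose in macrophages from 7.0, 8.01 and 8.90 CPM to 18.7, 21.7 and 19.8 CPM, and its interaction was 1.66 ± 0.18 (adjusted p 0.0019).

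**Figure D3:**
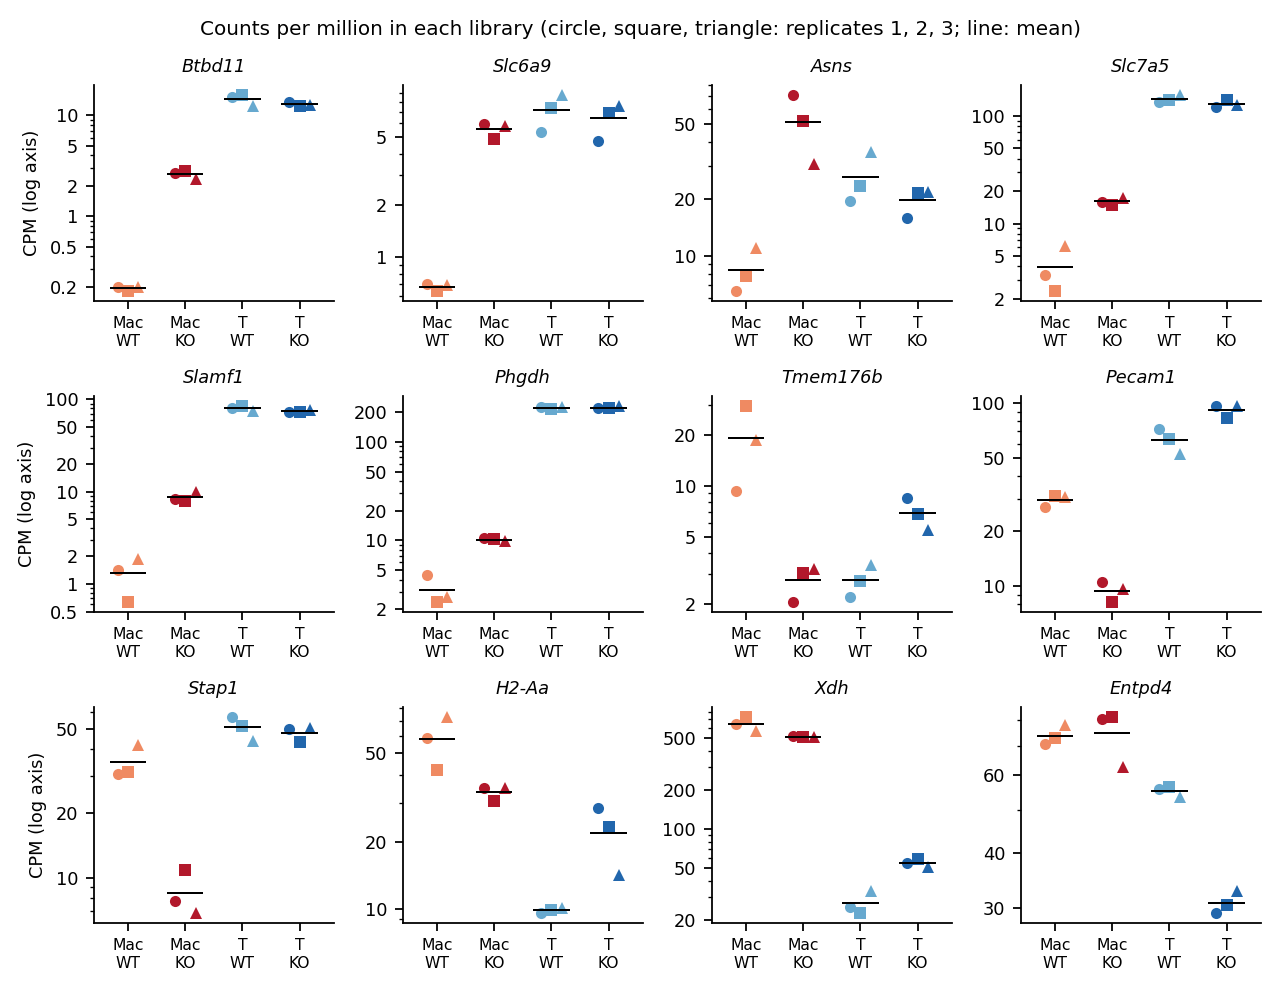
CPM on log axes of 12 genes in each library, by group (Mac, macrophages; T, CD4 T cells), with circle, square and triangle for replicates 1, 2 and 3 and a line at the mean. The first 6 genes separate KO from WT in macrophages and overlap in CD4 T cells. Mean levels of Tmem176b, Pecam1 and H2-Aa move in opposite directions in the 2 cell types, though not every fit calls each change. Stap1 falls in macrophages, and Xdh and Entpd4 separate in CD4 T cells.

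Genes that bring amino acids into the cell or make them formed the list with the most calls. Of 34 tested genes of the integrated stress response and of amino acid supply, 5 had a called interaction, all above 0 (14.7%, beside 1.06% of all genes). The integrated stress response is the programme in which the factor ATF4 turns on such genes when amino acids run short or proteins misfold. The median interaction of the list was 0.47, against -0.02 over all genes tested, and 28 of the 34 were above 0. In macrophages 15 members rose and 1, Xbp1, fell in the joint fit, beside 4.31% and 4.1% of all genes (median change 0.46), and 5 rose on the macrophages' own libraries, beside 0.55%. In CD4 T cells no member was called, in the joint fit or on their own libraries, with a median change of -0.08. With DESeq2, 10 members were called in either direction, beside 3.34% of all genes. Without macrophage WT replicate 3, 12 members were called above 0 and 1 below 0, beside 7.9% and 8.71% of all genes, and the median was 0.52.

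Asns, asparagine synthetase, was at 71.1, 51.7 and 30.7 CPM in KO and at 6.50, 7.83 and 11.0 CPM in WT macrophages. In CD4 T cells it was at 15.9, 21.6 and 21.8 CPM in KO and at 19.4, 23.3 and 35.4 CPM in WT libraries, so that the groups overlapped there and stood apart in macrophages. Its interaction was 2.99 ± 0.44 (adjusted p 0.012), and the call was lost without CD4 T cell KO replicate 1 (adjusted p 0.053). Slc7a5, the light chain of the large neutral amino acid transporter LAT1, was at 16.0, 14.7 and 17.4 CPM in KO macrophages and at 3.30, 2.37 and 6.23 CPM in WT macrophages. CD4 T cells held far more of it in both genotypes, 120 to 139 CPM in KO and 134 to 155 CPM in WT libraries. The interaction of Slc7a5 was 2.17 ± 0.29 (adjusted p 0.0063). Phgdh, the first enzyme of serine synthesis, was at 10.5, 10.3 and 9.81 CPM in KO and 4.40, 2.37 and 2.67 CPM in WT macrophages, and at 213 to 231 CPM in all CD4 T cell libraries. Its interaction was 1.69 ± 0.20 (adjusted p 0.0046).

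Shmt2, the mitochondrial enzyme that converts serine to glycine, rose less, to 22.7 to 26.9 CPM from 14.5 to 16.8 CPM in macrophages, with an interaction of 0.73 ± 0.12 (adjusted p 0.018). Slc7a1, a transporter of arginine and lysine, stood at 29.3, 20.5 and 15.5 CPM in KO and 6.80, 3.83 and 10.1 CPM in WT macrophages, and its interaction was 1.79 ± 0.36 (adjusted p 0.040). With the replicate number as a block, the adjusted p of Slc7a1 was 0.081. Each of these calls rested on part of the libraries: Shmt2 was called in 6 of the 12 fits that left out 1 library and Slc7a1 in 3. Bcat1, which starts the breakdown of branched-chain amino acids and was not on the list, behaved alike, with 2.70, 2.92 and 2.88 CPM in KO and 1.3, 0.638 and 1.09 CPM in WT macrophages and an interaction of 1.75 ± 0.22 (adjusted p 0.0050). On the CD4 T cells' own libraries Bcat1 fell, from 85.9 to 91.7 CPM down to 70.3 to 76.3 CPM (adjusted p 0.031). Atf4 itself had an interaction of 0.74 ± 0.20 that was not called (adjusted p 0.11).

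Other genes with a positive interaction were Cdyl, a chromatin co-repressor (0.89 ± 0.12, adjusted p 0.0090), and Eaf1, a partner of the elongation factor ELL (1.05 ± 0.15, adjusted p 0.0097). Egr2, a zinc finger factor of early activation, rose to 46.9 to 52.4 CPM from 25.9 to 38.5 CPM in macrophages, with 0.88 ± 0.18 (adjusted p 0.041). It was the 1 called gene among 31 AP-1, EGR and NR4A factors (3.23%, beside 1.06% of all genes) and was called in 2 of the 12 fits that left out 1 library. Cttn, which encodes the actin-binding protein cortactin, Hmgb3, a chromatin protein, Bcam, an adhesion molecule, and Tacc2, a centrosomal protein, had interactions of 1.83, 2.10, 1.97 and 1.77, and each was called in 3 to 5 of those 12 fits. In the fit with the replicate block, Cttn and Bcam were not called (adjusted p 0.052 and 0.067). In limma voom, Cttn, Hmgb3 and Tacc2 were not called (adjusted p 0.0543, 0.189 and 0.0542). Hmgb3 held 49 reads in the KO and 12 in the WT macrophage libraries. The summed level of 11 stromal and mesothelial markers in macrophage libraries was 443, 349 and 799 CPM in KO and 257, 158 and 390 CPM in WT, with overlapping groups (exact two-sided permutation test, p = 0.2). It came almost wholly from collagens and Dcn, while Msln, Upk3b, Krt19, Krt18 and Wt1 lay at 0 to 0.648 CPM. Its part in these results was not tested.

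Among the negative interactions, Pecam1, the adhesion molecule CD31, moved in opposite directions. It was at 10.6, 8.21 and 9.60 CPM in KO and 27.1, 31.0 and 30.9 CPM in WT macrophages. In CD4 T cells it was at 96.3, 83.1 and 96.4 CPM in KO and at 72.5, 63.6 and 52.5 CPM in WT libraries. Neither pair of groups overlapped. Pecam1 fell by 1.65 log2 units in macrophages (adjusted p 0.00025), while the change of 0.55 in CD4 T cells was not called in the joint fit (adjusted p 0.19) or on their own libraries (0.083) and was called in limma voom (0.017). The interaction was -2.19 ± 0.19 (adjusted p 0.00032).

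Tmem176b, a membrane protein of antigen-presenting cells, was called in opposite directions when each cell type was fitted on its own. It was at 2.05, 3.02 and 3.20 CPM in KO and 9.30, 29.6 and 18.7 CPM in WT macrophages, and at 8.45, 6.82 and 5.46 CPM in KO and 2.20, 2.73 and 3.39 CPM in WT CD4 T cells. Its own-fit adjusted p was 0.049 in macrophages and 0.010 in CD4 T cells, and its interaction was -4.10 ± 0.55 (adjusted p 0.0063). Arl5c, a small GTPase, was the other gene called in opposite directions by the separate fits. It stood at 40.5 to 44.3 CPM in KO against 61.9 to 72.6 CPM in WT macrophages, and at 6.12 to 7.76 CPM against 3.56 to 5.0 CPM in CD4 T cells (interaction -1.50 ± 0.19, adjusted p 0.0050).

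Other genes fell in macrophages, with no called change in CD4 T cells. Stap1, an adaptor of receptor tyrosine kinase signalling, was at 7.77, 10.8 and 6.83 CPM in KO and 30.8, 31.3 and 42.1 CPM in WT macrophages, against 43.2 to 50.1 CPM and 43.7 to 56.8 CPM in KO and WT CD4 T cells (interaction -1.95 ± 0.24, adjusted p 0.0050). Coro1a, an actin-binding protein of leukocytes, was at 188, 183 and 175 CPM in KO and 500, 357 and 533 CPM in WT macrophages, and at 954 to 1033 CPM in all CD4 T cell libraries (interaction -1.41 ± 0.18, adjusted p 0.0060). Fgd2, an exchange factor for the GTPase Cdc42, held 15 reads in the 3 KO and 155 in the 3 WT macrophage libraries. Its interaction of -4.67 ± 0.62 was the largest in size of all 124 (adjusted p 0.0063). Part of that size came from an opposite change in CD4 T cells, which was not called (adjusted p 0.38 in the joint fit). Fgd2 counted as expressed in macrophages alone. In CD4 T cells it held 48 KO and 17 WT reads, at 1.06 to 1.67 CPM in KO and 0.254 to 0.662 CPM in WT libraries. Gpr65, a proton-sensing receptor, fell to 17.2 to 20.8 CPM from 40.5 to 58.2 CPM in macrophages, with an interaction of -1.67 ± 0.25 (adjusted p 0.012) that was lost without CD4 T cell KO replicate 1 (adjusted p 0.053).

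Several lists held 1 call each, a negative one, which is 2.38% to 3.7% of the members tested beside 1.06% of all genes. A share that rests on 1 call says little about its list. Tlr9, the endosomal sensor of CpG DNA, was the 1 call among 33 genes of Toll-like receptor signalling, at 0.216 to 0.864 CPM in KO and 2.10 to 3.19 CPM in WT macrophages and at 1.3 to 2.09 CPM in KO and 0.414 to 0.848 CPM in WT CD4 T cells. Its interaction was -3.29 ± 0.58 (adjusted p 0.023). Ccl22, a chemokine that attracts CCR4-bearing cells, was the 1 call among 42 inflammatory genes, with 13 reads in the KO and 109 in the WT macrophage libraries, and 7.17 to 10.8 CPM in KO against 3.56 to 5.46 CPM in WT CD4 T cells (-3.78 ± 0.63, adjusted p 0.017). Pik3cd, the leukocyte catalytic subunit of PI3 kinase, was the 1 call among 30 genes of SHIP1 and PI3 kinase signalling (-0.71 ± 0.13, adjusted p 0.029). It stood at 96.0 to 120 CPM in KO against 142 to 148 CPM in WT macrophages, and at 454 to 486 CPM against 370 to 425 CPM in CD4 T cells. Elovl6, a fatty acid elongase, was the 1 call among 27 genes of sterol and fatty acid synthesis and lay near 1 CPM in WT macrophages, with an interaction of -2.12 ± 0.33 (adjusted p 0.014). Tlr9, Ccl22, Pik3cd and Elovl6 were called in 7, 8, 4 and 11 of the 12 fits that left out 1 library. In limma voom Ccl22 and Elovl6 were not called (adjusted p 0.057 and 0.070). Macrophage WT replicate 3 held 63 of the 109 WT reads of Ccl22, whose call held without that library.

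Genes of antigen presentation had mostly negative interactions. Of 27 tested, 2 had a called interaction, both below 0 (7.41%, beside 1.06% of all genes). The median interaction was -0.36, with medians of -0.17 in macrophages and 0.27 in CD4 T cells, and 5 of the 27 were above 0. H2-Aa, the alpha chain of the class II molecule I-A, was at 34.8, 30.3 and 34.8 CPM in KO and 58.5, 41.9 and 72.7 CPM in WT macrophages. Its level in CD4 T cells was 28.3, 23.2 and 14.2 CPM in KO and 9.57, 9.85 and 10.1 CPM in WT libraries. Its interaction was -1.94 ± 0.33 (adjusted p 0.019). The fall of H2-Aa in macrophages was called in the joint fit (adjusted p 0.047), not on their own libraries (0.13) or in limma voom (0.20). Its rise in CD4 T cells was not called in the joint fit (0.17) or on their own libraries (0.091) and was called in limma voom (0.038). H2-Eb1, the beta chain of I-E, ran parallel, with an interaction of -1.78 ± 0.33 (adjusted p 0.028) that was not called in limma voom (adjusted p 0.0568). H2-Ab1, the partner chain of H2-Aa, had an interaction of 0.05 ± 0.46 that was not called, with 289, 237 and 249 CPM in KO and 157, 81.0 and 273 CPM in WT macrophages. On the CD4 T cells' own libraries H2-Ab1 rose (adjusted p 0.016). Whether counting split reads among class II genes was not tested. H2-Aa was called in 6 and H2-Eb1 in 5 of the 12 fits that left out 1 library.

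A set of B cell markers was also summed in the CD4 T cell libraries, where the KO and WT groups overlapped. The summed level of 10 markers was 58.3, 54.6 and 34.2 CPM in KO and 25.2, 27.9 and 38.6 CPM in WT libraries (exact two-sided permutation test, p = 0.2, where 0.1 is the smallest possible). None of the 10 was at 0 in all CD4 T cell libraries. The order of the KO libraries, with replicate 3 lowest, was the same for H2-Aa and for the marker sum, but an order of 3 libraries cannot decide a link. The part of B cells in the class II result was not tested. In macrophages the same markers summed to 6.10 to 17.6 CPM, with overlapping groups (exact p = 1).

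For 5 genes the single effect called in the joint fit lay in CD4 T cells alone. Xdh, xanthine dehydrogenase, was at 55.0, 58.8 and 50.7 CPM in KO and 25.1, 22.6 and 33.2 CPM in WT CD4 T cells, and at 507 to 523 CPM and 568 to 728 CPM in KO and WT macrophages. Xdh rose in KO CD4 T cells by 1.02 log2 units (adjusted p 0.021), with an interaction of -1.36 ± 0.19 (adjusted p 0.0096). Marcks, a membrane-bound substrate of protein kinase C, rose to 3.14, 2.71 and 2.36 CPM from 1.19, 1.32 and 1.10 CPM in CD4 T cells, and overlapped between 75.9 and 92.6 CPM in macrophages (interaction -1.23 ± 0.20, adjusted p 0.016). Its call was lost without CD4 T cell KO replicate 1 or WT replicate 2 (adjusted p 0.060 and 0.052).

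The other 3 fell in CD4 T cells and overlapped in macrophages. Entpd4, a Golgi nucleotidase, was at 29.3, 30.5 and 32.8 CPM in KO and 55.9, 56.6 and 53.7 CPM in WT CD4 T cells, against 62.8 to 81.4 CPM in all macrophage libraries (interaction 0.86 ± 0.14, adjusted p 0.016). Entpd4 has a near-identical annotated copy, Entpd4b, which is not among the symbols of the files, so its counts may mix both. Wdr11 was at 19.7 to 23.9 CPM in KO and 32.8 to 38.4 CPM in WT CD4 T cells (0.75 ± 0.12, adjusted p 0.016). Man2c1, a cytosolic mannosidase, was at 35.1 to 36.9 CPM in KO and 50.1 to 60.2 CPM in WT CD4 T cells (0.64 ± 0.11, adjusted p 0.020). Entpd4, Wdr11 and Man2c1 were called in 6, 8 and 5 of the 12 fits that left out 1 library. Of these 5 genes, all but Marcks are named after their values were seen. The 5 interaction genes called in neither single effect of the joint fit were Selenbp1, H2-Eb1, Unc93b1, Appl2 and Cdh3, of which the last 3 are likewise named after their values were seen. Selenbp1 was called on the CD4 T cells' own libraries (adjusted p 0.038), and limma voom called the CD4 T cell effect of H2-Eb1, Unc93b1 and Cdh3 (adjusted p 0.034, 0.037 and 0.038). The same voom fit did not call the interaction of H2-Eb1, Unc93b1, Cdh3 or Appl2 (adjusted p 0.0568, 0.0501, 0.0581 and 0.0639). With the replicate block the interactions of Unc93b1 and Cdh3 were not called (adjusted p 0.066 and 0.061).

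Genes with a site for miR-155-5p had a higher median change than genes without one in both cell types, with the larger difference in macrophages. The difference in CD4 T cells was smaller than the SD between replicates, 0.0327. That SD is of single libraries and was pooled over all 4 groups, the more variable macrophages included. It is therefore not the error of the CD4 T cell difference, which was 0.0153 to 0.028 when 1 library was left out. A gene was called seed-matched where its longest annotated 3' UTR held an 8mer (AGCATTAA), a 7mer-m8 (AGCATTA) or a 7mer-A1 (GCATTAA), read on the transcript strand. Each of the shorter words was counted outside an 8mer, and 14.6% of the tested genes (1704) were seed-matched. In macrophages the median change of seed-matched genes was 0.12 log2 units above that of the 8964 genes with no site, and in CD4 T cells 0.0236 above. With DESeq2 the CD4 T cell difference was 0.00604 and with no expression filter in edgeR 0.00311. Both values took in every gene with any count, expressed or not, so the gene set differed from that of the main fit. The median interaction was 0.04 for seed-matched genes and -0.04 for genes with no site, a difference of 0.08. For the 389 genes with an 8mer, the differences from genes with no site were 0.20 in macrophages, 0.05 in CD4 T cells and 0.10 for the interaction. Without macrophage WT replicate 3 the difference of seed-matched genes was 0.13 for the interaction and 0.18 in macrophages.

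By counts in the joint fit, 142 seed-matched genes rose and 31 fell in KO macrophages (8.33% and 1.82%), against 316 and 414 of the genes with no site (3.53% and 4.62%), and in CD4 T cells 1 rose and 0 fell, against 0 and 5. On the macrophages' own libraries 18 seed-matched genes rose and 1 fell, against 36 and 32 of the genes with no site. On the CD4 T cells' own libraries 52 seed-matched genes rose and 8 fell, against 74 and 69. The interaction was called above 0 for 12 and below 0 for 3 of the seed-matched genes, and for 49 and 47 of the genes with no site. Seed-matched genes thus made up 17.9% of the called positive and 5.26% of the called negative interactions, beside 14.6% of all genes tested. Of the genes called up on their own libraries, 30.5% of 59 were seed-matched in macrophages and 37.1% of 140 in CD4 T cells.

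**Figure D4:**
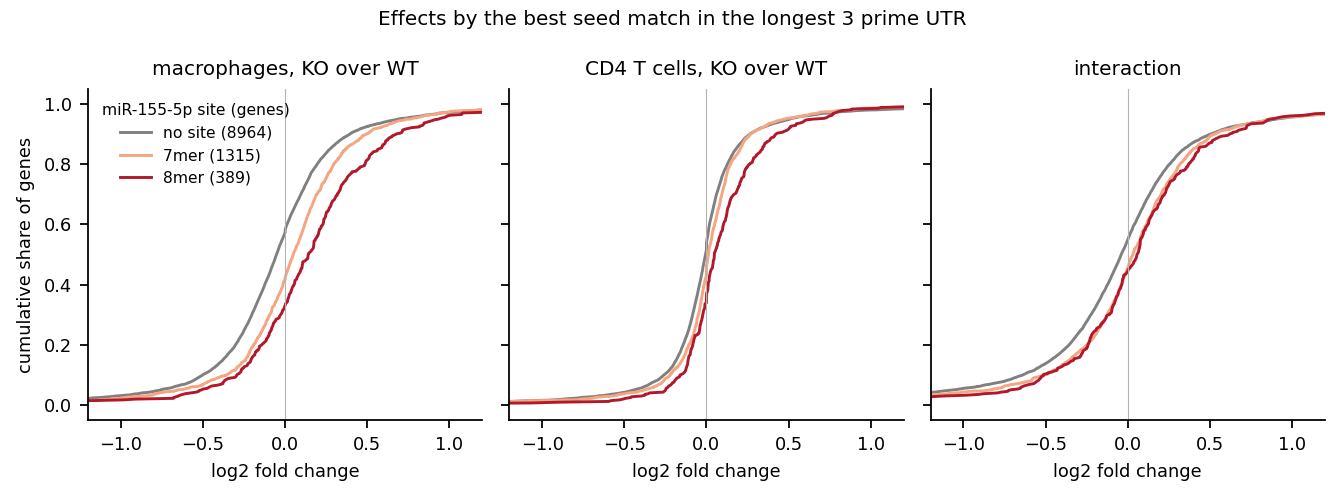
Cumulative share of genes against log2 change for genes with an 8mer, with a 7mer and with no miR-155-5p site, in KO over WT macrophages, in KO over WT CD4 T cells and for the interaction. A curve further right means higher values; the 8mer curve lies to the right of the no-site curve in each panel, by 0.20, 0.05 and 0.10 at the median.

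Of the 15 seed-matched genes with a called interaction, 7 of those named are shown with their sites. Each line gives 14 bases before the match, the match in capitals and, for 7mers, 1 base after it. The sites were read from GENCODE M21 transcripts on GRCm38, a later build than that of the counts. Slc6a9 lies on chr4:117875162-117875183 (plus strand), Bcat1 on chr6:144998055-144998076 (minus), Slc7a1 on chr5:148328711-148328732 (minus), Ttc28 on chr5:111289636-111289657 (plus), Cdyl on chr13:35873367-35873388 (plus), Stap1 on chr5:86103950-86103971 (plus) and Marcks on chr10:37133960-37133981 (minus), all in an annotated 3' UTR.
Slc6a9: actatgactctgcgGCATTAAa
Bcat1: gcacaagacagtagAGCATTAg
Slc7a1: tttgttggctcccaAGCATTAA
Ttc28: cacaatttccagacAGCATTAA
Cdyl: ctaagttatgaattAGCATTAg
Stap1: acatgcatttctttGCATTAAa
Marcks: aaaaaagagataacAGCATTAg

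The sites of Slc7a1 and Ttc28 are 8mers, those of Bcat1, Cdyl and Marcks 7mer-m8 and those of Slc6a9 and Stap1 7mer-A1. Of the 7 genes, Slc6a9, Bcat1, Slc7a1, Ttc28 and Cdyl rose in KO macrophages, Stap1 fell there, and Marcks rose in KO CD4 T cells. Ttc28, a protein with tetratricopeptide repeats, was at 9.82, 9.94 and 11.3 CPM in KO and 1.90, 3.19 and 3.36 CPM in WT macrophages, and at 1.77 to 2.12 CPM and 1.44 to 2.48 CPM in CD4 T cells (interaction 1.86 ± 0.35, adjusted p 0.028). It was called in 3 of the 12 fits that left out 1 library. The site of Slc6a9 begins at base 2201 of a 3' UTR of 2221 bases, close to its end. The site of Slc7a1 begins at base 3722 of 5030. Further seed-matched genes, chosen by smallest p, were Gnl3l, a nucleolar GTPase (interaction 0.78 ± 0.13), and D15Ertd621e (0.57 ± 0.10), which also rose in KO macrophages.

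The reported targets of miR-155 showed no called difference between the cell types in edgeR's fit of all 12 libraries. Of 41 tested, none had a called interaction there, beside 1.06% of all genes. An unadjusted p under 0.05 was found for 9, beside 14.9% of all genes. DESeq2 called 2, beside 3.34%, and limma voom 0, beside 0.838%. Without macrophage WT replicate 3, edgeR called 4 above and 4 below 0, beside 7.9% and 8.71% of all genes. In the joint fit 12 rose and 1 fell in KO macrophages, beside 4.31% and 4.1% of all genes, and 0 were called in CD4 T cells, beside 0.0598%. On each cell type's own libraries 3 rose in macrophages, beside 0.55% of all genes, and 10 rose in CD4 T cells, beside 1.35%. None fell in either, beside 0.336% of all genes in macrophages and 0.798% in CD4 T cells. The median change was 0.26 in macrophages and 0.24 in CD4 T cells, and the median interaction 0.08. A call that is missed does not show that the effects were equal, and the SE of each interaction bounds what could have been seen.

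Bach1, a repressor of haem and antioxidant genes, was at 109, 94.7 and 94.2 CPM in KO and 54.4, 70.7 and 49.8 CPM in WT macrophages. In CD4 T cells it was at 14.2, 13.9 and 15.6 CPM in KO and 8.64, 10.7 and 9.66 CPM in WT libraries. Groups stood apart in both cell types, and the interaction was 0.18 ± 0.19 (adjusted p 0.72). Jarid2, a subunit of Polycomb repressive complex 2, was at 139, 112 and 123 CPM in KO and 55.8, 50.7 and 82.9 CPM in WT macrophages, and at 186, 176 and 178 CPM in KO and 113, 108 and 89.7 CPM in WT CD4 T cells. Its interaction was 0.19 ± 0.23 (adjusted p 0.76). Tab2, an adaptor of the kinase TAK1, was at 170 to 186 CPM in KO and 112 to 137 CPM in WT macrophages, and at 145 to 146 CPM against 95.9 to 109 CPM in CD4 T cells (0.08 ± 0.13, adjusted p 0.84). Their 8mers are shown because the interactions of these genes were small beside their changes in either cell type. Bach1 also holds a 7mer-m8, printed last. The 8mer of Bach1 lies on chr16:87732174-87732195 and its 7mer-m8 on chr16:87732386-87732407 (plus strand), the pair of Jarid2 on chr13:44920079-44920100 and chr13:44920852-44920873 (plus), and that of Tab2 on chr10:7906691-7906712 (minus).
Bach1 8mer: tctatgaacagtttAGCATTAA
Jarid2 first: actgattttgttttAGCATTAA
Jarid2 second: gtgtccctcacatcAGCATTAA
Tab2: gccataaggtagaaAGCATTAA
Bach1 7mer-m8: gaaatatattgcatAGCATTAt

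Picalm, a clathrin assembly protein, was at 953 to 1073 CPM in KO and 552 to 566 CPM in WT macrophages, and at 179 to 202 CPM against 119 to 142 CPM in CD4 T cells. Its interaction of 0.37 ± 0.14 was not called in edgeR (adjusted p 0.23) and was called in DESeq2 (adjusted p 0.039). Inpp5d, the phosphatase SHIP1, rose on the CD4 T cells' own libraries (adjusted p 0.012) and was not called in macrophages (adjusted p 0.063). Its changes were 0.25 and 0.29 log2 units, with an interaction of -0.03 ± 0.11. Socs1, a suppressor of cytokine signalling, had a wide error, at 62.2, 24 and 136 CPM in WT macrophages (interaction -0.14 ± 0.60). Cebpb rose in KO macrophages by 0.40 (adjusted p 0.018) and Peli1, a ubiquitin ligase, moved by 0.12 there, and their interactions were 0.12 ± 0.15 and 0.08 ± 0.18. Spi1, which encodes PU.1, lay at 0.339 to 1.70 CPM in CD4 T cells, and Maf at 0.0815 to 0.593 CPM, so that their interactions of -0.79 ± 0.37 and -0.38 ± 0.75 compare an effect in macrophages with one near the floor.

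When each cell type was fitted alone, 7 genes were called in the same direction in both. The 6 that rose were Atxn1l, Hn1l, Kbtbd2, Picalm, Wbp1l and Zfp652, and all 6 were seed-matched, beside 14.6% of all genes tested. Their changes ran from 0.60 to 0.89 log2 units among macrophages and from 0.36 to 0.77 among CD4 T cells, and none had a called interaction (adjusted p 0.11 to 0.92). Zfp652, a zinc finger repressor, had the smallest difference, with 59.8 to 61.3 CPM in KO and 29.9 to 37.7 CPM in WT macrophages and 19.9 to 23.2 CPM against 10.7 to 15.0 CPM in CD4 T cells (interaction 0.07 ± 0.17). Its 8mer lies on chr11:95764405-95764426 (plus strand) and that of Atxn1l, a relative of ataxin 1, on chr8:109726720-109726741 (minus).
Zfp652: tgaggttagtccagAGCATTAA
Atxn1l: ctgatctttaacaaAGCATTAA

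The 1 gene that fell in both was Mrpl39, a mitochondrial ribosomal protein gene next to Mir155. It was at 31.9, 22.4 and 26.1 CPM in KO and 52.8, 50.2 and 50.7 CPM in WT macrophages, and at 42.9, 46.6 and 40.8 CPM in KO and 62.9, 66.5 and 66.7 CPM in WT CD4 T cells, with an interaction of -0.35 ± 0.15 (adjusted p 0.32). Of the other annotated neighbours, Atp5j, Gabpa and App had no called interaction. Jam2, an adhesion molecule, fell in KO macrophages (0.539, 0.648 and 1.49 CPM against 5.10, 4.19 and 16.0 CPM) and was at or near 0 in every CD4 T cell library, so that no interaction is given for it.

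Interferon response genes had mostly negative interactions, none of them called. None of 37 tested had a called interaction in edgeR, beside 1.06% of all genes, and 6 had an unadjusted p under 0.05, beside 14.9%. DESeq2 called 1, beside 3.34%, and limma voom 0, beside 0.838%. The median interaction was -0.75, with -0.33 in macrophages and 0.35 in CD4 T cells. Only 5 of the 37 were above 0. Single genes varied widely between libraries: Ifit1, an RNA-binding effector, was at 3.13, 4.64 and 10.6 CPM in KO and 15.8, 4.55 and 8.81 CPM in WT macrophages, and Irf7, the regulator of the response, at 184, 188 and 359 CPM in KO and 537, 63.9 and 209 CPM in WT macrophages. In both genes the groups overlapped. Without macrophage WT replicate 3, the median was -0.74, and 2 members, Rsad2 and Samhd1, were called below 0, beside 8.71% of all genes.

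Of the other lists, the 26 tested T helper genes had a median interaction of 0.59 and no call, and only 5 of them were expressed at 1 CPM in both cell types, so that most of these values set T cells against macrophages near the floor. The same holds for the 36 tested genes of macrophage identity, with a median of -0.54, no call and 10 expressed in both. For both lists DESeq2 made no call either, and 3 and 2 members had an unadjusted p under 0.05. Cell cycle genes (42 tested), glycolysis and hypoxia genes (28) and lysosomal genes (34) had medians of -0.24, -0.24 and -0.17 and no call. Of these 3 lists, 15, 8 and 4 members had an unadjusted p under 0.05, and 2, 5 and 2 were called in DESeq2, beside 14.9% and 3.34% of all genes. The 23 genes of microRNA processing and silencing had a median of 0.14 and no call in edgeR or DESeq2, with 3 at an unadjusted p under 0.05. Without macrophage WT replicate 3, 10 of them were called above 0, beside 7.9% of all genes, among them Drosha, Dicer1 and Ago2. Other lists moved with that library too. Without it, 12 lysosomal, 9 mitochondrial ribosome and 7 glycolysis and hypoxia genes were called below 0, beside 8.71% of all genes, and 0 above. Cell cycle had 6 calls below and 2 above 0, oxidative stress 8 and 1, sterol and fatty acid synthesis 9 and 2, and antigen presentation 6 and 1. With all 12 libraries, the cytokine signalling, T cell receptor, naive T cell, oxidative stress, p53, Polycomb and mitochondrial ribosome lists had no call in edgeR. In each, 0 to 7 members had an unadjusted p under 0.05 and 0 to 2 were called in DESeq2.

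**Figure D5:**
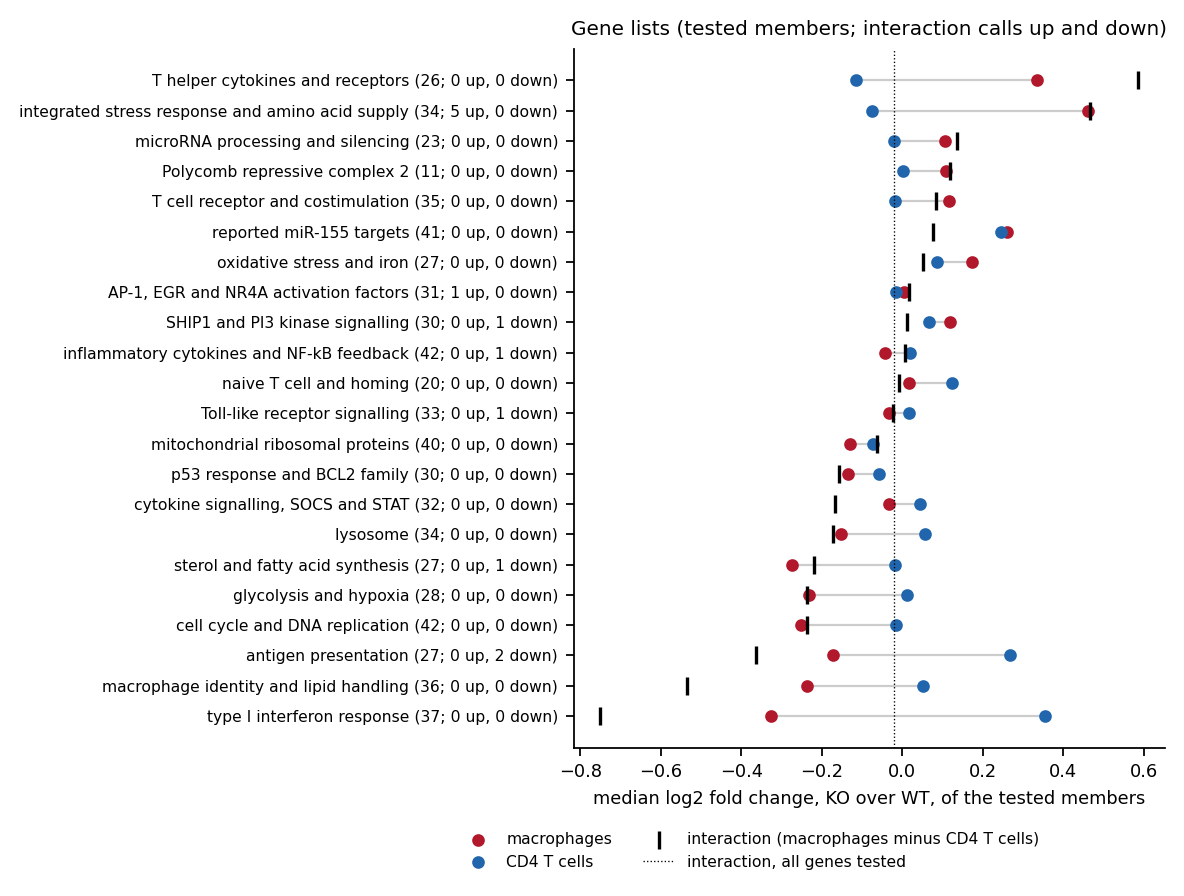
Median log2 KO-over-WT change of the tested members of each gene list in macrophages (red) and in CD4 T cells (blue), with the median interaction as a black bar and the median of all genes tested, -0.02, as a dotted line; brackets give the members tested and the interaction calls. Amino acid supply lies at 0.47 with 5 calls and the interferon response at -0.75 with none.

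Most calls were of genes expressed in both cell types. Of 9381 such genes, 65 were called above 0 and 55 below 0 (1.28%). Of 1305 genes expressed at 1 CPM in macrophages alone, 3 were called (0.23%), and of 835 expressed in CD4 T cells alone, 1 was called (0.12%), Elovl6. For genes of 1 cell type the interaction is that cell type's effect against one that few counts define. Fam135a, the one such macrophage gene at 5 CPM or more among the calls, carries an 8mer and was at 17.7, 17.2 and 19.8 CPM in KO and 7.0, 9.65 and 12 CPM in WT macrophages. The CD4 T cell libraries held 7 KO and 24 WT reads of it in all, and its interaction was 2.64 ± 0.52 (adjusted p 0.033, and 0.056 with the replicate block).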

How the data were processed

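RNA of the 12 libraries was read as paired ends of 50 nucleotides on an Illumina HiSeq 2500 after TruSeq preparation, per the labels' protocols. The authors deposited whole-number counts per gene symbol over coding sequence, 1 file a library. Per the submitters' processing notes, cutadapt, STAR and the mm9 build were used. The counting tool and its handling of strand were not given in the sources used here, so reads of overlapping or antisense genes cannot be told apart. The 5 closing lines of each file, which belong to no gene, were dropped; reads outside counted features made up 51.4 to 53.1% of all counts.

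Groups came from the sample titles. edgeR 4.0.16 in R 4.3.3 fitted 4 group means to the 12 libraries (TMM factors, filterByExpr, robust quasi-likelihood), with Benjamini-Hochberg adjustment over the genes tested, and genes were called at an adjusted p under 0.05 with no minimum fold. SE was taken as the size of the log2 change over the root of the F statistic. CPM uses library sizes times TMM factors. limma 3.58.1 (voom) and DESeq2 1.42.0 were alternatives. The scripts were tested on simulated data. Counting intervals cover counting error only. The precision of low genes is set by 8070030 to 14219823 counts per library.

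Replicate numbers are shared between KO and WT. In macrophages, deviations of same-numbered KO and WT libraries correlated at 0.133, 0.311 and 0.393, so the numbers pair these samples as a hint from the data; in CD4 T cells the values were 0.0427, 0.0747 and -0.249. The fit reported has no block, and the blocked value is printed where it ends a call.

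Sites were searched in the longest 3' UTR per symbol in GENCODE M21 (GRCm38). Of 20673 symbols, 19967 matched directly, 576 through an older name and 130 not at all, and 20026 had a 3' UTR. The miRNA sequence is RefSeq's.

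The comparison, the 22 gene lists and 15 marker sets were chosen with earlier results of these data known. Named genes are the 10 largest interactions in each direction among called genes expressed in both cell types at a mean of 5 CPM, up to 5 each way among those of 1 cell type, 8 called genes with a seed match, by smallest p, 10 reported targets, up to 4 members of each list by smallest p, and the Mir155 neighbours. Predicted genes were passed over, and genes outside this rule were named after their values were seen: Dab2ip, Eaf1, Coro1a, Fgd2, Arl5c, Xdh, Wdr11, Entpd4, Man2c1, Unc93b1, Appl2, Cdh3, the genes called in both separate fits, those that describe the macrophage WT libraries, and Atf4, Xbp1, H2-Ab1, Ifit1, Irf7, Rsad2, Drosha, Dicer1 and Ago2. Values of some single genes are not reported here.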

Additional observations from a re-analysis of the deposited data

Results flagged for a closer look

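The interaction is itself a test of whether the knockout effect differs between macrophages and CD4 T cells, so each called gene that is named counts here, 46 in all. Positive values mean a more upward change in macrophages, in log2 units.

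Among genes of amino acid supply and metabolism the interaction was 2.99 for Asns, 2.17 for Slc7a5, 1.79 for Slc7a1, 1.69 for Phgdh, 0.735 for Shmt2, 1.75 for Bcat1 and 3.16 for Slc6a9. The calls of Slc6a9, Slc7a5, Phgdh and Bcat1 held in each of the 12 fits that left out 1 library.

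Among surface, signalling and nuclear genes above 0 it was 3.84 for Btbd11, 2.84 for Slamf1, 1.66 for Dab2ip, 1.97 for Bcam, 1.83 for Cttn, 1.77 for Tacc2, 2.63 for Cdh3, 1.05 for Eaf1, 0.886 for Cdyl, 0.878 for Egr2, 2.10 for Hmgb3 and 0.777 for Gnl3l. It was 1.86 for Ttc28, 2.64 for Fam135a, 0.572 for D15Ertd621e, 0.749 for Wdr11, 0.864 for Entpd4 and 0.645 for Man2c1, of which the last 3 fell in CD4 T cells.

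Among receptors, antigen presentation and immune signalling below 0 it was -2.19 for Pecam1, -4.10 for Tmem176b, -1.94 for H2-Aa, -1.78 for H2-Eb1, -3.29 for Tlr9, -0.937 for Unc93b1, which carries nucleic acid sensing receptors to endosomes, -1.65 for Cd180, -1.66 for Gpr65, -3.78 for Ccl22, -0.705 for Pik3cd, -1.95 for Stap1 and -1.72 for Traf3ip3. Among other genes below 0 it was -1.41 for Coro1a, -4.67 for Fgd2, -1.50 for Arl5c, -1.36 for Xdh, -1.23 for Marcks, -2.12 for Elovl6, -2.06 for Selenbp1, -1.55 for Kcnn4 and -1.14 for Appl2. Groups held 3 libraries each, and the ratio test for a single distant sample, which needs 4, was not applied. With the replicate block the call of Cd180 was lost (adjusted p 0.057).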

How the results depend on the processing

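The 124 interaction calls (67 above 0, 57 below 0) became 389 (205 and 184) in DESeq2 and 445 (188 and 257) with all 24 libraries. Leaving out 1 library gave 18 to 1962 calls, 9 to 933 above 0 and 9 to 1029 below 0, the lowest without CD4 T cell KO replicate 1 and the highest without macrophage WT replicate 3. With upper-quartile scaling, no filter, a filter at 1 CPM, voom or genes of both cell types only, there were 122, 119, 125, 98 and 133 calls. The 984 macrophage calls became 394 in voom, 1755 with 24 libraries, 95 on macrophages alone and 356 to 3930 without 1 library. The 7 CD4 T cell calls became 69 in DESeq2, 208 in voom, 63 with 24 libraries, 223 on CD4 T cells alone and 1 to 46 without 1 library. The cause of these shifts was not tested.

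The interaction difference of seed-matched genes, 0.0757, was 0.0547 to 0.134 without 1 library. The macrophage difference, 0.121, was 0.0788 in DESeq2, 0.078 with no filter, 0.196 for 8mers only and 0.0874 to 0.177 without 1 library. The CD4 T cell difference, 0.0236, was 0.00604 in DESeq2 and 0.00311 with no filter. The DESeq2 and no-filter differences took in every gene with any count, a wider gene set than that of the main fit. None of these differences changed sign.

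With the replicate number as a block there were 121 interaction calls (53 above 0, 68 below 0), of which 88 were among the 124, 1075 macrophage calls and 3 CD4 T cell calls. The block ended the calls of Slc7a1, Bcam, Cttn, Cd180 and Fam135a among the 34 genes named by rule, and those of Unc93b1 and Cdh3. Each macrophage KO library correlated best with the WT library of its own number. Of these 34 genes, 34 stayed called in DESeq2, 27 in voom and 11 to 34 without 1 library.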
